A study of Saccharomyces cerevisiae with 12 samples.

Results

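Budding yeast lacking the RNA helicase Dbp7 was compared with wild-type yeast, both carrying an empty vector, by RiboMeth-seq (RMS) of total RNA. The comparison took every library that the labels place in these 2 groups, 6 of the 12 libraries of the series. WT + EV (labelled WT_EV, n = 3) is the wild-type strain and Δdbp7 + EV (labelled deltaDbp7_EV, n = 3) is the deletion strain. Per the study's methods the strains are based on S. cerevisiae BY4741, a laboratory haploid, the Δdbp7 strain came from the genome-wide deletion collection, and the complementation plasmids derive from a pRS vector. The empty plasmid is the same in both groups, and all cultures were harvested during exponential growth. The other 6 libraries are of the deletion strain with plasmid-borne wild-type Dbp7 (Δdbp7 + Dbp7WT) or catalytically inactive Dbp7 (Δdbp7 + Dbp7DQGD), and serve here to estimate the spread and for 1 test of a difference. The deletion group thus stands for 1 strain, and the tables hold no DBP7 mRNA, so the genotype itself could not be checked in these data.

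Dbp7 is a DEAD-box RNA helicase of the nucleolus that is needed for assembly of the large (60S) ribosomal subunit and acts on its earliest precursor particles. At the same stage, box C/D small nucleolar ribonucleoproteins (snoRNPs) add a methyl group to the 2′-hydroxyl of chosen riboses. Each carries a guide snoRNA that base-pairs with the pre-rRNA and places the methyltransferase Nop1 (fibrillarin) over a target nucleotide, and some guides have several targets. A snoRNA has to be released again before the stretch it pairs with can take its final fold. RMS detects the mark by protection: the backbone beside a 2′-O-methylated ribose resists alkali, so fewer read ends map there than to its neighbours. The RMS score is 1 minus the ratio of the end count to a weighted mean of the 6 nucleotides on either side, from 0 (no protection) to 1 (complete protection), and 1 minus the score is called the unprotected remainder below.

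Some of the sites described below are shown with the rRNA around them. They are those called over all libraries without pairing, those the study named, and 25S C650. Each line gives 12 nucleotides on either side in the 5′ to 3′ direction, with the bases as deposited, set here in lower case. Capitals mark the listed 2′-O-methylated nucleotides, and the site in question is the one in the middle of each line. Positions count from the first nucleotide of each mature rRNA, and the guide snoRNA is named after the site.
18S A436 (snR87): cagcaggcgcgcAaauuacccaauc
25S C650 (U18): cgucuugaaacACggaccaaggagu
25S C663 (snR58): ggaccaaggaguCuaacgucuaugc
25S G867 (snR50): uggaggcucguaGcgguucugAcgu
25S U898 (snR40): cgaucgucgaauUuggguauagGgg
25S A1449 (U24): CuuggugguaguAGcaaauauucaa
25S C2197 (snR76): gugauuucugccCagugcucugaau
25S U2347 (snR65): guCccuaucuacUaucuagcgaaac
25S A2640 (snR68): aucuguuaaacgAuaacgcagaugu
25S C2948 (snR69): agggaacgugAgCuggguuuagaCc
Some of these stretches hold a further listed site, such as A649 beside C650 and A2946 close to C2948. Of the 55 listed sites, 22 have another within 6 nucleotides, where the protected neighbour lowers the flanking mean against which a site is scored.

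Between 8578561 and 23549872 read ends were counted per library of WT + EV, and between 7498768 and 8009776 for Δdbp7 + EV. At the 55 sites the flanking mean of a library lay between 381 and 7177 read ends and the end count at the site between 7 and 1257. The counting error of a single score had a median of 0.00614 and reached 0.0389, while the SD between the 3 libraries of a group had a median of 0.0134. Replicates were described as biological. Same-numbered libraries of WT + EV and Δdbp7 + EV deviated from their group means in the same direction at the same sites. Pearson's r of the deviations across the 55 sites was 0.888, 0.855 and 0.892 for numbers 1, 2 and 3. Between different numbers it was -0.24 to -0.68, and same-numbered libraries were also compared as pairs. Deviations cancel out within a group, so the negative values follow from the positive ones and are no separate support for pairing. Sites are not independent replicates, and what the libraries of a pair had in common is not stated in the labels.

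The RMS score was lower without Dbp7 at a limited number of sites, most of them in the 25S rRNA. Compared over all libraries with limma, 4 of the 55 sites were lower in Δdbp7 + EV (7.27% of the sites tested) and 1 was higher (1.82%) at an adjusted p under 0.05: 25S G867, U898, A1449 and A2640 fell and 18S A436 rose. With a block for each pair, the calls rose to 14 lower (25.5%) and 3 higher (5.45%), and included all 5 of these. Blocked by replicate number across all 12 libraries instead, 5 of the 55 sites were lower and 2 higher. Fitted without a block on the 6 compared libraries alone, 7 of the 55 sites were lower and 2 higher. Besides the same 5, these were C650, A876, C2197 and C2948 of the 25S rRNA. Values given below as without the block are from the fit over all 12 libraries unless stated. At 12 sites all 3 Δdbp7 + EV scores were below all 3 of WT + EV (21.8%), and in 4 they were above (7.27%). In the unblocked fit over all libraries, WT + EV replicate 2 decided most: with it left out only 1 site passed, U898. Leaving out replicate 1 of WT + EV gave 2 sites, as did leaving out replicate 1 or 3 of the deletion.

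**Figure D1:**
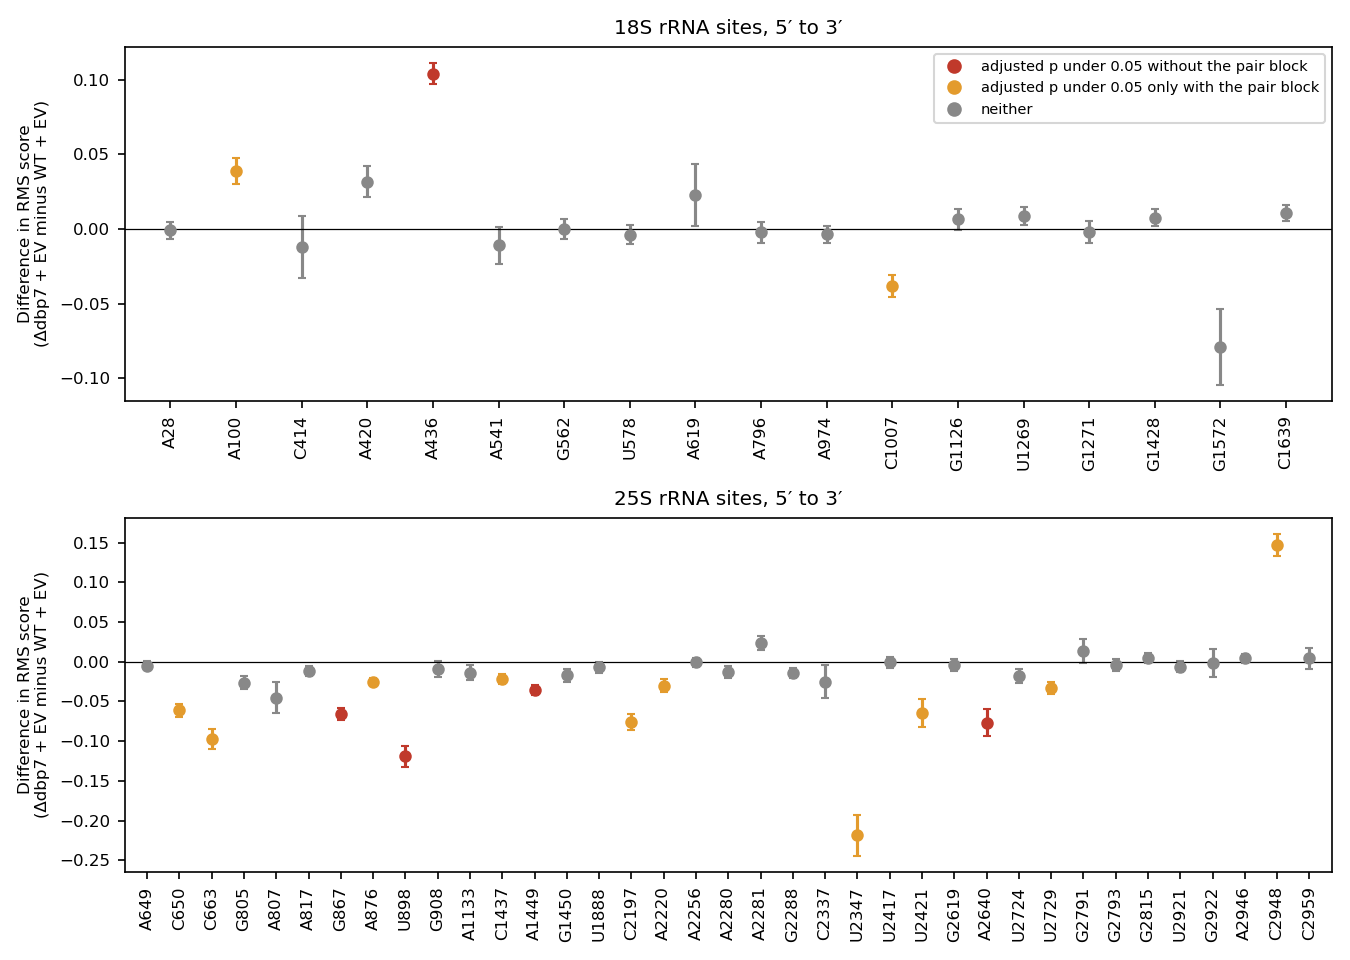
Difference in RMS score between Δdbp7 + EV and WT + EV (n = 3 each, y axis) at the 18 listed sites of 18S rRNA (top) and the 37 of 25S rRNA (bottom), in 5′ to 3′ order on the x axis; points are differences of means, bars the standard error (SE) of the fit with a block for each pair, and colours the calls. The 25S points lie mostly below 0, the lowest at U2347 (-0.218), and 18S A436 and 25S C2948 stand highest.

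The 2 rRNAs differed in how their sites were spread. In 25S rRNA 31 sites were lower and 6 higher (median difference -0.0139), with 13 lower and 1 higher call under the pair block, whereas in 18S rRNA 10 were lower and 8 higher (median -0.000481), with 1 lower and 2 higher calls. Over all 55 sites the median was -0.00709. Within 25S rRNA, 22 of the 23 sites before nucleotide 2400 were lower (median -0.0250), 16 of them in 3 of 3 pairs and 10 called with the pair block. From nucleotide 2400 to the 3′ end, 9 of 14 were lower (median -0.00294), and 3 lower and 1 higher were called with the block. The mean score over the 23 sites was 0.926, 0.936 and 0.922 in WT + EV and 0.886, 0.899 and 0.879 in Δdbp7 + EV, without overlap. Over the 14 sites it was 0.906, 0.944 and 0.898 in WT + EV and 0.908, 0.928 and 0.904 in Δdbp7 + EV, with overlap. These splits are descriptions, and no test of the difference between the regions was made.

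Among the sites from A817 to G908 of the 25S rRNA, G867, A876 and U898 were lower, while A817 (-0.0117) and G908 (-0.00884), both guided by snR60, did not pass (limma with the pair block, adjusted p = 0.262 and 0.569). U898, the 25S target of snR40, scored 0.846, 0.798 and 0.848 in WT + EV and 0.695, 0.718 and 0.721 in Δdbp7 + EV. The unprotected remainder at U898 rose from 0.17 to 0.289, 1.70-fold. G867, an snR50 target 31 nucleotides upstream, scored 0.951, 0.970 and 0.945 in WT + EV against 0.905, 0.896 and 0.867 in Δdbp7 + EV, and its remainder rose 2.47-fold. At both sites the groups were apart in all libraries, and both passed in limma (adjusted p = 0.00409 and 0.011) and in edgeR on the end counts (adjusted p = 0.0155 for each). Between them lies A876, guided by snR72, with 0.949, 0.940 and 0.953 in WT + EV and 0.922, 0.918 and 0.926 in Δdbp7 + EV. Its fall by 0.0253 was small and regular, -0.0266, -0.0220 and -0.0273 in the 3 pairs, and passed with the pair block (limma, adjusted p = 0.012; 0.101 without) and, unblocked, from 5′ read ends alone (adjusted p = 0.0199). Fitted on the 6 compared libraries alone, A876 passed without a block (limma, adjusted p = 0.0466) but not with a replicate block (0.0542).

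Further upstream, C650 and C663 were lower. C650 is placed by U18, a box C/D snoRNA that also guides the adjacent A649. Its score was 0.967, 0.971 and 0.977 in WT + EV and 0.913, 0.920 and 0.899 in Δdbp7 + EV. The groups were apart, and the unprotected remainder rose 3.19-fold, the largest ratio among the 55 sites. It passed with the pair block (limma, adjusted p = 0.000986; 0.169 without) and, unblocked, in edgeR (adjusted p = 0.0295). C650 also passed without a block when only the 6 compared libraries were fitted (limma, adjusted p = 0.011). A649, by contrast, stayed at 0.984, 0.991 and 0.981 against 0.985, 0.982 and 0.972, with overlap (difference -0.00525, SE 0.00606, adjusted p = 0.777). C663, guided by snR58, scored 0.829, 0.867 and 0.795 in WT + EV and 0.709, 0.810 and 0.679 in Δdbp7 + EV. The groups overlapped at C663, since replicate 2 of Δdbp7 + EV was above replicate 3 of WT + EV. The pair differences were -0.119, -0.0568 and -0.116 (limma with the pair block, adjusted p = 0.000986, without it 0.119). On the 6 compared libraries alone, C663 passed with a replicate block (limma, adjusted p = 0.00408) but not without a block (0.197).

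U24 guides 3 neighbouring 25S sites. A1449 scored 0.976, 0.979 and 0.971 in WT + EV and 0.944, 0.941 and 0.934 in Δdbp7 + EV, apart in all libraries (limma, adjusted p = 0.0272). Its remainder rose from 0.0245 to 0.0602. C1437 was lower in 3 of 3 pairs (-0.00966, -0.0219 and -0.0338) but with overlapping groups. It passed with the pair block (limma, adjusted p = 0.036, without it 0.542). With a replicate block on the 6 compared libraries alone, C1437 did not pass (limma, adjusted p = 0.116). At G1450, directly after A1449, the difference of -0.0169 (SE 0.0177) passed neither without the block nor with it (adjusted p = 0.773 and 0.175), and replicate 3 was 0.0022 higher in Δdbp7 + EV. From 5′ read ends alone C1437, A1449 and G1450 all passed (differences -0.0394, -0.0381 and -0.0237; limma, adjusted p = 0.0259, 0.0211 and 0.0112), and the differences between the 3 sites were not tested.

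In the middle of the 25S rRNA, C2197, A2220 and U2347 were lower. U2347, guided by snR65, is one of the incompletely methylated sites of wild-type yeast and had the largest difference of all, -0.218 (SE 0.0625). It scored 0.679, 0.783 and 0.607 in WT + EV and 0.447, 0.590 and 0.377 in Δdbp7 + EV. The groups were apart, although the highest Δdbp7 + EV library lay only just below the lowest of WT + EV. The pair differences were -0.232, -0.193 and -0.230, so that the spread between replicate numbers was much wider than that of the pair differences (limma with the pair block, adjusted p = 0.000986; 0.0592 without). On the 6 compared libraries alone, U2347 passed with a replicate block (limma, adjusted p = 0.000107) but not without a block (0.129). U2347 also has the lowest flanking mean of the 55 sites (381 in Δdbp7 + EV replicate 1).
C2197, an snR76 target, scored 0.923, 0.942 and 0.951 in WT + EV and 0.868, 0.841 and 0.880 in Δdbp7 + EV. The groups were apart and the remainder rose 2.24-fold (limma with the pair block, adjusted p = 0.000986; 0.411 without). C2197 also passed without a block when only the 6 compared libraries were fitted (limma, adjusted p = 0.0176). A2220, guided by snR47, scored 0.977, 0.981 and 0.979 in WT + EV and 0.951, 0.966 and 0.928 in Δdbp7 + EV. Again the groups were apart (limma with the pair block, adjusted p = 0.0261, without it 0.0592, and edgeR, adjusted p = 0.0155). On the 6 compared libraries alone, A2220 passed neither without a block (limma, adjusted p = 0.169) nor with a replicate block (0.0679).

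Towards the 3′ end of the 25S rRNA, A2640, U2421 and U2729 were the lower sites. A2640, an snR68 target, scored 0.945, 0.935 and 0.895 in WT + EV and 0.852, 0.851 and 0.843 in Δdbp7 + EV, so that the 3 deletion libraries lay close together (SD 0.0052) below all wild-type libraries (limma, adjusted p = 0.038; edgeR, 0.0515). U2729, guided by snR51, scored 0.935, 0.968 and 0.947 against 0.912, 0.917 and 0.922, apart, and passed with the pair block (limma, adjusted p = 0.012; 0.140 without). U2421, guided by snR78, had the widest spread of the called sites, 0.798, 0.962 and 0.615 in WT + EV and 0.733, 0.863 and 0.585 in Δdbp7 + EV. Here the groups overlapped widely, and the sign of the unpaired difference (-0.0646) turned when WT + EV replicate 2 (0.0204) or Δdbp7 + EV replicate 3 (0.00649) was left out, and the combined score passed with the block (limma, adjusted p = 0.0308) but not without it (0.777). From 5′ read ends alone the groups were apart, and the difference of -0.0621 passed unblocked (limma, adjusted p = 0.0032). U2421 is also 1 of 3 sites, with 18S C414 and A541, where the authors' overview gives means (0.965 and 0.899) above those of the deposited libraries (0.792 and 0.727). The overview's legend mentions a barcode correction at some sites, and its difference, -0.0656, was close to that of the libraries.

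**Figure D2:**
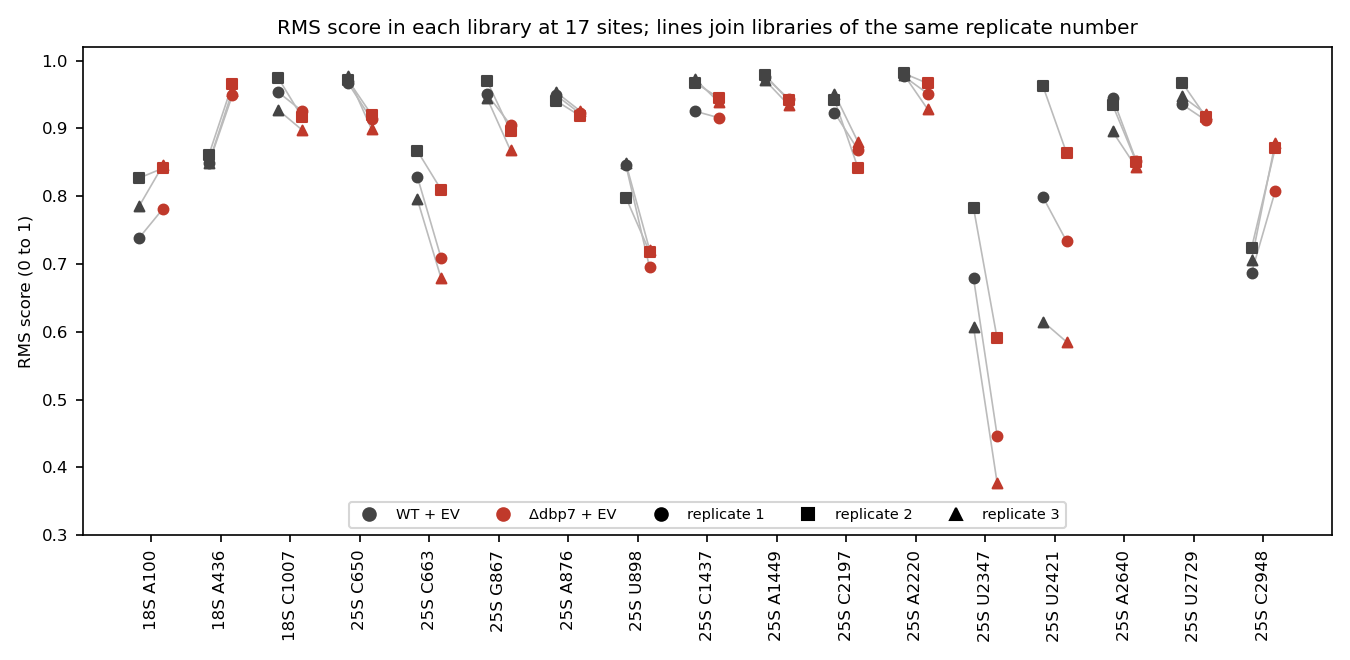
RMS score (y axis, 0 to 1, shown from 0.3) in each of the 6 libraries at the 17 sites called with a block for each pair (x axis); symbols give the replicate number and grey lines join same-numbered libraries. Lines run down at 14 sites and up at 18S A100, 18S A436 and 25S C2948, and those of 25S U2347 run from 0.607 to 0.783 down to 0.377 to 0.590.

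Higher scores were found as well. The snR87 target 18S A436 scored 0.848, 0.861 and 0.849 in WT + EV and 0.949, 0.966 and 0.955 in Δdbp7 + EV. The pair differences were 0.101, 0.105 and 0.106, and the unprotected remainder fell from 0.147 to 0.0433. Thus the end count at A436 was at 0.294 of its wild-type level relative to its neighbours (limma, adjusted p = 0.038; edgeR, 0.0271). 25S C2948, an snR69 target in the region of the peptidyl transferase centre, scored 0.687, 0.724 and 0.706 in WT + EV and 0.807, 0.871 and 0.879 in Δdbp7 + EV. The groups were apart and the remainder was at 0.501 of wild type (limma with the pair block, adjusted p = 0.000637; 0.0938 without). C2948 also passed without a block when only the 6 compared libraries were fitted (limma, adjusted p = 0.0138). A2946, guided by snR71 and 2 nucleotides before C2948, was at 0.979, 0.985 and 0.967 against 0.983, 0.980 and 0.982, with overlap. 18S A100, guided by snR51, rose in 3 of 3 pairs (0.0426, 0.0143 and 0.0600) with overlapping groups. It passed only with the pair block over all 12 libraries (limma, adjusted p = 0.0143, without it 0.704). With a replicate block on the 6 compared libraries alone, A100 did not pass (limma, adjusted p = 0.0515). 18S A420 and 18S C1639, guided by snR52 and snR70, were apart with the higher scores in Δdbp7 + EV (lowest score 0.936 over a highest of 0.933 in WT + EV, and 0.980 over 0.976), and passed in neither fit (limma with the pair block, adjusted p = 0.0515 and 0.175).

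In the 18S rRNA only C1007 was called lower. This snR79 target scored 0.953, 0.974 and 0.927 in WT + EV and 0.926, 0.917 and 0.898 in Δdbp7 + EV. The groups were just apart, and the combined score passed with the pair block (limma, adjusted p = 0.00798; 0.610 without). The largest 18S difference in the lower direction, -0.0789 at the snR57 target G1572, came with scores from 0.476 to 0.880 in WT + EV and from 0.452 to 0.717 in Δdbp7 + EV. Both groups were widely spread and overlapped (limma, adjusted p = 0.777; with the pair block 0.0515).

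Targets of the same guide snoRNA were not always called together. Of the 55 sites, 54 are assigned to a guide or enzyme, and 11 guides serve more than 1 site. snR40 directs both 25S U898 and 18S G1271: the former was 0.119 lower, and the difference at the latter was -0.00221 (adjusted p = 0.987). snR51 directs 25S U2729, which was 0.033 lower, and 18S A100, which was 0.0389 higher, both called with the pair block and not in the unblocked fit of the combined score. snR47 serves 25S A2220 (-0.0302) and 18S A619 (0.0229), of which only the former passed with the pair block. The differences between targets of a guide were not tested. 25S G2922, methylated by the stand-alone enzyme Spb1 without a guide, was at 0.853 ± 0.0996 (SD, n = 3) in WT + EV and 0.851 ± 0.0576 in Δdbp7 + EV.

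Beyond lying mostly in the 25S rRNA, the called sites had few features in common. By the wild-type level, 2 of the 5 sites with a WT + EV mean under 0.8 were lower and 2 higher with the pair block, as were 5 and 1 of the 25 sites from 0.8 to 0.95. Of the 25 sites at 0.95 or above, 7 were lower and none was higher; a score in that band has little room to rise. By base, calls with the block in the lower direction were made at 5 of 10 cytidines, 4 of 10 uridines, 4 of 20 adenosines and 1 of 15 guanosines. Calls were made at 5 of the 22 sites with another listed site within 6 nucleotides and at 12 of the 33 without.

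Each score combines read ends of both kinds, and these were also examined apart. From 5′ read ends only, limma called 17 sites, 15 lower and 2 higher, without any block. Of these, 14 were among the 17 called with the pair block from all read ends, and all 5 sites called in the unblocked fit were included. The 3 further sites were 25S G805, A807 and G1450. At C650 the 5′ ends gave 0.980, 0.981 and 0.977 in WT + EV against 0.918, 0.923 and 0.910 in Δdbp7 + EV (limma, adjusted p = 1.39e-05). C2948 was at 0.786, 0.736 and 0.727 against 0.898, 0.906 and 0.906 (limma, adjusted p = 1.31e-05). 18S C1007 was at 0.979, 0.983 and 0.978 against 0.940, 0.931 and 0.916 (limma, adjusted p = 0.000167). In each of these 3 the groups stood further apart than in the combined score.
From 3′ read ends only, limma called 0 of the 55 sites, and 6 had an unadjusted p under 0.05. The SD between replicates of a group had a median of 0.0239 from 3′ ends and of 0.008 from 5′ ends, and was the larger from 3′ ends at 45 of 55 sites in WT + EV and at 43 of 55 in Δdbp7 + EV. For 16 of the 17 sites that passed under the pair block the difference had the same sign from both kinds of end; at U2729 it was -0.0451 from 5′ ends and 2.21e-05 from 3′ ends. At U2347, Δdbp7 + EV replicate 2 scored 0.437 from 5′ ends and 0.826 from 3′ ends, whereas the other Δdbp7 + EV libraries were at 0.487 and 0.388 from 5′ ends and at 0.393 and 0.365 from 3′ ends. The source of the wider spread of 3′ ends was not tested.

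**Figure D3:**
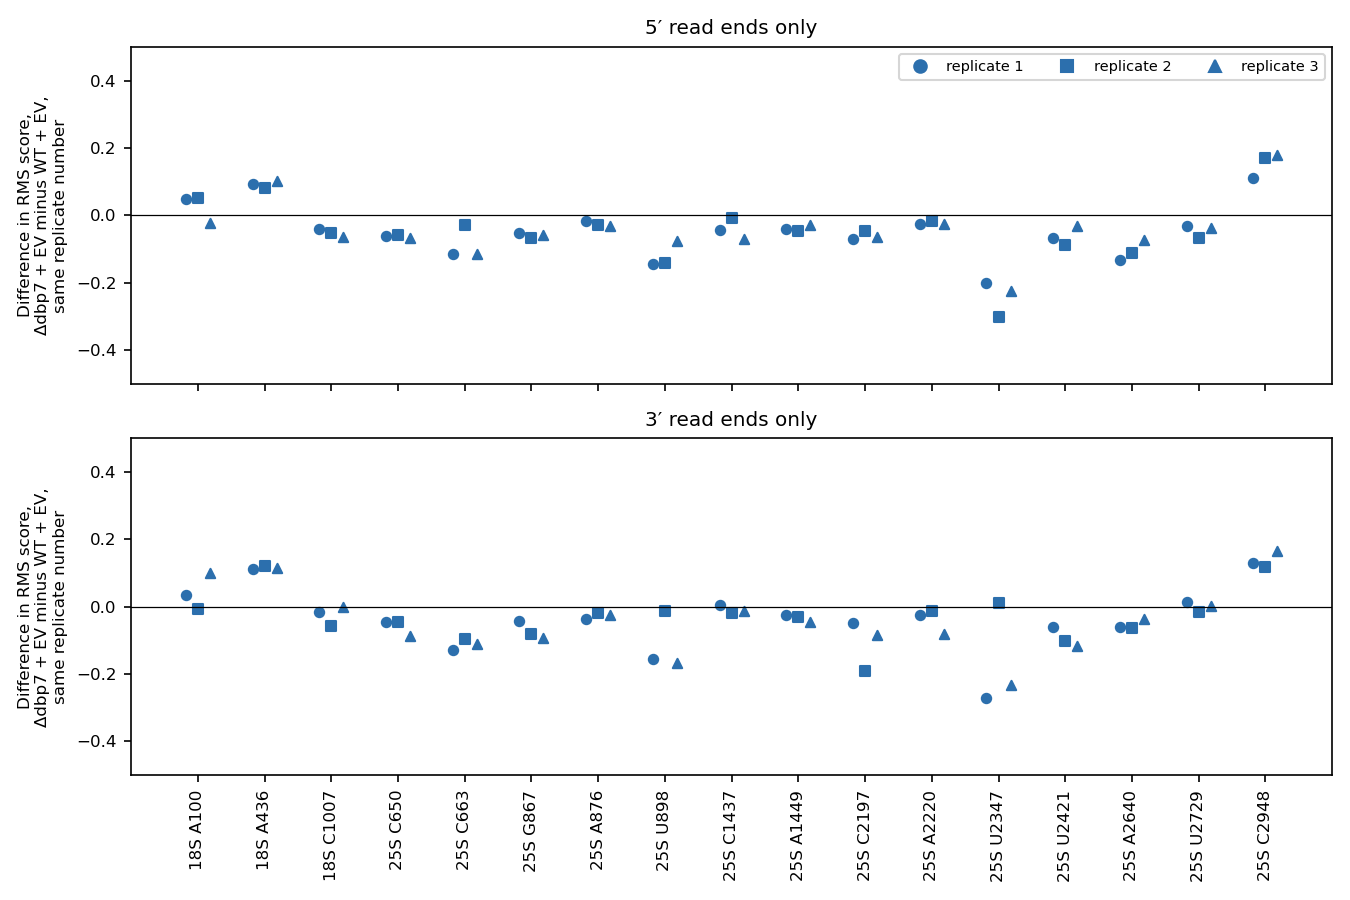
Difference in RMS score between same-numbered libraries of Δdbp7 + EV and WT + EV (y axis) at the 17 sites that passed under the pair block (x axis), computed from 5′ read ends only (top) and 3′ read ends only (bottom); each symbol is 1 pair. At U2347 the 3 pairs lie together at the top, while at the bottom replicate 2 lies near 0.

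To ask whether other nucleotides differed, end counts relative to the flanking mean were compared at 5318 nucleotides of 18S, 25S and 5.8S rRNA. edgeR called none, neither higher (0%) nor lower (0%). An unadjusted p under 0.05 was seen at 68, fewer than evenly spread p-values would give. None of the listed sites passed in this fit either, although edgeR on the 55 sites alone called 6. The 0 calls therefore cannot settle whether other nucleotides differed. DESeq2 called 1, 25S G867, with more read ends in Δdbp7 + EV (adjusted p = 0.0198). With the pair block edgeR called 3 nucleotides, 18S A436, 25S G867 and 25S C2948, all of them listed sites. From 5′ ends only, 7 passed in edgeR, of which 6 were listed sites and the remaining one was 18S G1035, which had more 5′ ends in Δdbp7 + EV (log2 ratio 3.27, adjusted p = 0.00703). Of the 55 listed sites, 13 had an unadjusted p under 0.05, and their median log2 ratio of end counts was 0.17, against -0.00324 over all nucleotides tested. 25S A2721 had the smallest p outside the listed sites. Its read ends over the flanking mean were 0.688, 0.623 and 0.608 in WT + EV and 0.926, 0.933 and 0.783 in Δdbp7 + EV, apart, but did not pass (adjusted p = 1.00 in edgeR). As a position without known methylation, 25S G2395 scored 0.003, 0.214 and 0 in WT + EV and 0.0472, 0.241 and 0 in Δdbp7 + EV. Replicate 2 was the highest in both groups, and the groups did not differ beyond that spread (edgeR, log2 ratio of end counts 0.03).

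The size of the deletion's effect was set against the effect of losing catalytic activity, from the libraries with plasmid-borne Dbp7, since these comparisons share no library. The difference between both effects passed at 0 of 55 sites (0%) in limma, with 2 at an unadjusted p under 0.05, and at 0 in edgeR. With a block for each pair it passed at 18S A436 and 25S C2948, the 2 sites with the largest rise. At A436 the deletion's effect was 0.104 and that of inactive against active plasmid-borne Dbp7 was -0.0177, a difference of 0.122 (limma with the pair block, adjusted p = 0.000528; 0.552 without). At C2948 the effects were 0.147 and -0.0400, a difference of 0.187 (limma with the pair block, adjusted p = 0.00123; 0.621 without). In Δdbp7 + Dbp7WT the 3 libraries scored 0.957, 0.885 and 0.877 at A436 and 0.743, 0.876 and 0.836 at C2948, all above the 3 WT + EV libraries. At U2347 the effects were -0.218 and -0.205 (difference -0.0136, SE 0.0883), and at U898 -0.119 and -0.0778 (difference -0.0414, SE 0.025).

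Read ends were also summed over each RNA to ask how the RNAs relate to each other, with 18S rRNA as the reference and each sum divided by the RNA's length. In bulk RNA, fewer molecules per cell and a different make-up of the culture cannot be told apart, and a ratio does not tell which of its RNAs moved. All 7 ratios that could be formed passed in limma, 6 higher (85.7%) and 1 lower (14.3%) in Δdbp7 + EV, and in each the groups were apart. Exact permutation tests over the 6 libraries gave p = 0.1 for each (two-sided), the smallest that 3 against 3 allow. Relative to 25S rRNA the split was 7 higher and 0 lower, with 18S rRNA among the higher.

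Read ends of 25S rRNA, the large RNA of the 60S subunit, fell relative to 18S rRNA, the RNA of the 40S subunit. The ratio per nucleotide was 1.08, 1.07 and 1.14 in WT + EV and 0.740, 0.830 and 0.738 in Δdbp7 + EV. The fold was 0.701 (log2 -0.51, SE 0.07; limma, adjusted p = 2.45e-05). As a share of all read ends of the 11 RNAs, 25S rRNA fell from 60.4 to 61.5% in WT + EV to 45.0 to 49.0% in Δdbp7 + EV, while 18S rRNA took at most 30.2% in WT + EV and at least 31.3% in Δdbp7 + EV (log2 difference of the share 0.15, SE 0.04). These shares add up to a whole, so a lower share of one RNA raises the others, and RNAs outside the tables do not enter them.
No stretch of 18S or 25S rRNA was found to differ in its part of the read ends. The read ends of 18S and 25S rRNA were divided into 26 windows of 200 nucleotides (the last of the 25S rRNA shorter). The share of an rRNA's read ends per window differed between the groups by -0.09 to 0.08 on the log2 scale. limma called no window higher (0%) or lower (0%), and 0 windows had an unadjusted p under 0.05; no other tool was run on the windows.

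5.8S rRNA, which belongs to the 60S subunit as well and is cut from the same precursor as 25S rRNA, went the other way. Its read ends per nucleotide over 18S rRNA were 3.12, 3.32 and 4.69 in WT + EV and 7.92, 7.07 and 5.35 in Δdbp7 + EV. The groups were apart but spread widely, with a 1.83-fold rise (log2 0.88, SE 0.20; limma, adjusted p = 0.00143). Set against 25S rRNA the log2 difference was 1.39. In wild type too, 5.8S rRNA gave more read ends per nucleotide than 25S rRNA, although ribosomes hold 1 of each, so the levels of RNAs of different length cannot be read as molar amounts here. Fragments of 20 to 40 nucleotides were cut from a gel, and the part of this step in the 5.8S ratio was not tested. Leaving out 30 nucleotides at either end of each RNA gave a log2 difference of 0.87.

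The spliceosomal small nuclear RNAs (snRNAs), transcribed and assembled apart from the rRNAs, all rose relative to 18S rRNA, and fell into 2 sets by the size of the rise. U1 snRNA, which recognizes the 5′ splice site, rose 2.21-fold (log2 1.15, SE 0.08; limma, adjusted p = 1.51e-07), and U2 snRNA, which binds the branch point, rose 2.40-fold (log2 1.26, SE 0.07; adjusted p = 5.82e-08). For U2 snRNA the ratios to 18S rRNA were 0.00187, 0.00192 and 0.00197 in WT + EV and 0.0045, 0.00455 and 0.00477 in Δdbp7 + EV, with little spread in either group. The larger rise was that of the snRNAs of the tri-snRNP: U4 rose 5.83-fold, U5 5.52-fold and U6, which forms the catalytic core, 5.68-fold (log2 2.54, 2.47 and 2.51; limma, adjusted p = 1.29e-06, 3.24e-06 and 2.14e-07).
For U4 snRNA the ratios were 0.00217, 0.00261 and 0.00338 in WT + EV and 0.0185, 0.0133 and 0.0154 in Δdbp7 + EV. For U6 snRNA they were 0.00584, 0.00683 and 0.00783 against 0.0509, 0.0296 and 0.0379. Both RNAs ran highest in Δdbp7 + EV replicate 1 and lowest in WT + EV replicate 1, as did U5 snRNA (0.0201 and 0.00222). The replicate order of 5.8S rRNA had the same extremes. U4, U5, U6 and 5.8S are the 4 shortest of the RNAs with read ends (160, 215, 112 and 158 nucleotides, against 569 and 1171 for U1 and U2), so that the larger of the snRNA rises went with the shorter RNAs; whether recovery of short RNAs has a part in them was not tested. The snRNAs took between 0.00583 and 0.0376% of a library in WT + EV and between 0.0288 and 0.108% in Δdbp7 + EV, from 722 read ends of U4 snRNA upwards.

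**Figure D4:**
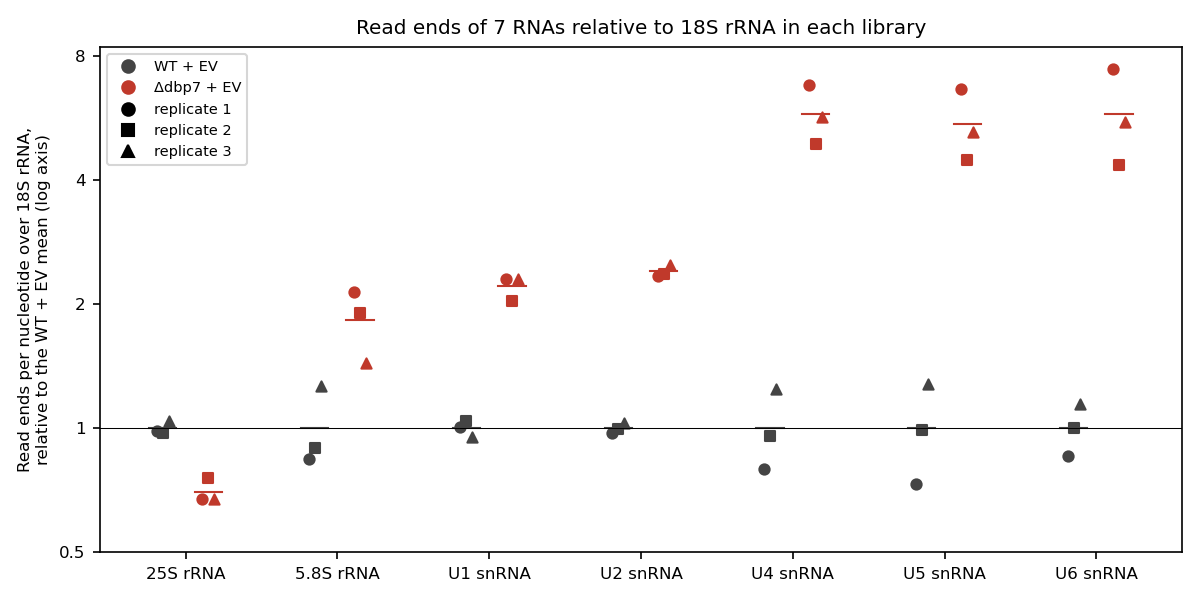
Read ends per nucleotide of 7 RNAs over those of 18S rRNA in each library, relative to the WT + EV mean of the same RNA (y axis, log scale); points are libraries with the replicate number as symbol and horizontal bars are group means (n = 3). 25S rRNA lies below 1 in all Δdbp7 + EV libraries, 5.8S rRNA, U1 and U2 snRNA lie above, and U4, U5 and U6 snRNA are highest, at 5.83, 5.52 and 5.68-fold on the log2 mean.

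The tables also list U14 and both copies of U3, box C/D snoRNAs that act in processing of the 18S precursor. They held 0, 4 and 30 read ends in all 12 libraries together, so no level of these snoRNAs could be given, and they are the only RNAs of the tables whose sequence is written with lower-case letters in the deposit. Whether the spelling has a part in this was not tested.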

How the data were processed

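RiboMeth-seq was performed by the authors on total RNA: alkaline fragmentation, gel selection of 20 to 40 nt fragments, adapter ligation and sequencing on an Ion Proton. Per the submitters' processing notes reads were handled with cutadapt 2.0 and Bowtie2 2.3.4.1; the genome build is not given in the sources used here. The authors deposited raw counts of read ends (5′, 3′ and summed) at 8112 nucleotides of 11 RNAs, without normalization, and the RMS score ("score C", a fraction from 0 to 1). Recomputing 90122 scores from the deposited counts gave a largest difference of 5e-10. The deposited overview holds the authors' mean score (a fraction) per group at 55 sites, 18 in 18S and 37 in 25S rRNA; library scores were used throughout. Not used were 24 per-sample columns holding other kinds of score.

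Scores were compared with limma 3.58.1 in R 4.3.3 (all 12 libraries in 4 groups, two-sided, Benjamini-Hochberg over the 55 sites, threshold 0.05). Nucleotides whose flanking mean reached 50 in all libraries were compared with edgeR 4.0.16 (quasi-likelihood, log flanking mean as offset) and DESeq2 1.42.0. Log2 ratios of read ends per nucleotide to 18S rRNA and of window shares were compared with limma. More ratios had been intended, but U14 and both U3 RNAs held almost no read ends, which left 7. The labels give replicate numbers but do not divide the groups into sets. Pairs were formed within the EV set and within the set with plasmid-borne Dbp7. Same-numbered libraries deviated together within a set (r from 0.855 to 0.892 in the EV set). Between WT + EV and Δdbp7 + Dbp7WT they did not (r = -0.205, 0.0922 and -0.0254). The fit with a block for each pair is given beside the unblocked one. In the main fits, p-values set the difference between the groups against the spread within groups. That spread is estimated over all 12 libraries, including those with plasmid-borne Dbp7. Replicate libraries differed by far more than counting noise (chi-square per degree of freedom 25.5 to 157), so none was treated as the same library deposited again. Intervals of counting refer to read ends without molecular identifiers. The limma fits of sites, with and without the pair block, the limma fit of ratios and the edgeR nucleotide fit were run on simulated data. The simulated sites shared the same spread and changed by more than most called sites did. The simulations therefore cannot give the error rates of the fits here. Sites are described in full where called in either fit, or named by the study; guides are textbook assignments. The sites, lists and tests were chosen with earlier results of these data known. Alternatives covered the samples fitted, blocks, score definition, read-end type, filters, denominators and each library left out.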

Additional observations from a re-analysis of the deposited data

How the results depend on the processing

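The count of 5 called sites moved most with the processing. It was 9 when only the 6 libraries were fitted, 13 when these were given a replicate block, and 17 with a replicate block for each pair over 12 libraries. It was 8 on the logit scale, 10 with flanks of 2 nucleotides, 17 from 5′ read ends only and 0 from 3′ read ends only (6 at an unadjusted p under 0.05 in limma), and between 1 and 6 with single libraries left out. Blocking for the replicate number alone, an intensity trend, unweighted flanks and edgeR kept the count within 1.5 times. The difference at 25S U2729 turned from 3′ ends (2.21e-05), and that at 25S U2421 with replicate 2 of WT + EV (0.0204) or replicate 3 of the deletion (0.00649) left out, its range with single libraries left out being -0.153 to 0.0204; the cause was not tested. The other 15 sites described in full kept their direction in all 17 settings, U898 passing in 16 and G867 in 15. The difference between the 2 effects was called at 2 sites with the block for each pair and at 0 without it. The fits with a library left out were unblocked and also called 0. They therefore cannot tell whether the 2 blocked calls rest on single libraries. In the nucleotide comparison the 0 calls became 3 with the pair block, 1 in DESeq2 and 7 from 5′ ends only. All RNA ratios tested passed under every setting, with 25S between -0.57 and -0.36 and U4 between 2.39 and 3.06 on the log2 scale, and the pair block changed none of these calls. No window was called under any setting. Depth limits single scores to a counting error of up to 0.0389, and 3 libraries a group limit the precision further.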
